A study of Mus musculus with 6 samples.

Results

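Transcription factors of retinal ganglion cells were followed in the posterior eye of mouse embryos with and without Oa1. The 10 genes are the POU-domain factors Pou4f1, Pou4f2 and Pou4f3, the LIM-homeodomain factors Isl1 and Isl2, the Ebf factors Ebf1 and Ebf3, the T-box factor Eomes and the homeodomain factors Dlx1 and Dlx2. They were chosen by name, and each probe set whose symbol in the annotation of the array was one of these names was taken. That gave 18 of 45101 probe sets, for 9 of the 10 genes. No probe set carried the symbol Pou4f2, so Pou4f2 was not analysed here. Of the 18, 16 probe sets of 8 genes passed the filter on low signals and were tested. The probe set of Pou4f3 and 1 of the 5 of Ebf1 did not pass and are given by their values.

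The study compared 3 wild-type (WT) with 3 Oa1-/- samples at embryonic day 15.5. A sample is the pooled eyes of 6 embryos of 1 dam, from which the anterior segments had been removed. Oa1, now named Gpr143, encodes a receptor of pigment cells, and its loss is the cause of ocular albinism type 1. The sources used here do not give the extent of the deletion, the strain or the embryos' sexes. RNA was hybridized to Affymetrix mouse expression arrays, and a value is the signal of a probe set, a group of short probes for 1 transcript, on a linear scale. Signals of different probe sets depend on their probes and were not set against each other.

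Ganglion cells are the output neurons of the retina and the earliest retinal neurons to be made, and their axons form the optic nerve. In the mouse, progenitors that express Atoh7 can become ganglion cells, and Pou4f2 and Isl1 then switch on much of the ganglion cell programme. Pou4f1, Eomes, Isl2 and the Ebf factors act later and mark subsets of ganglion cells. Several of the factors are not specific to ganglion cells. Isl1 also marks amacrine and bipolar cells, Dlx1 and Dlx2 are found in amacrine cells, and Ebf1 is known in mesenchyme and blood cells. In the albino retina, crossing of ganglion cell axons at the chiasm is altered, and a lack of Oa1 has been studied for its effect on retinal development for that reason.

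Promoter sequence was taken from RefSeq (GRCm38.p6) for 9 of the 10 genes, and Pou4f3 was left out. It is the 250 bases before the annotated start, written 5′ to 3′ on the gene's strand. Of these genes, 4 are shown. Isl1 and Eomes had probe sets on which the genotypes separated. So did Ebf1, whose promoter sequences are not shown. The pair Pou4f1 1429667_at and Dlx1 had the most negative correlation among the factors over the 6 arrays. Capitals mark matches to the homeodomain core TAAT and to the E-box CANNTG, the pattern bound by basic helix-loop-helix factors such as Atoh7, on either strand.
Pou4f1, chr14:104468000-104468249, minus strand: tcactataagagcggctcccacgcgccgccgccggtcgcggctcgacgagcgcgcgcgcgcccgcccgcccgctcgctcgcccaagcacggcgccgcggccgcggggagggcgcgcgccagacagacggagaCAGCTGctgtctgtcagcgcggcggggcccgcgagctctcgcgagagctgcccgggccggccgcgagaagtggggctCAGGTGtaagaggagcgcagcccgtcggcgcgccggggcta
Isl1, chr13:116309689-116309938, minus strand: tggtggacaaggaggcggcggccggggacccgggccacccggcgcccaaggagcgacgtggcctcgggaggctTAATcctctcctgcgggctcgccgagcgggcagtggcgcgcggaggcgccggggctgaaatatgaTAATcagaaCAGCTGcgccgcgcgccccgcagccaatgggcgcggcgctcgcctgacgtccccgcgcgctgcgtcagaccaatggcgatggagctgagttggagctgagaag
Eomes, chr9:118477939-118478188, plus strand: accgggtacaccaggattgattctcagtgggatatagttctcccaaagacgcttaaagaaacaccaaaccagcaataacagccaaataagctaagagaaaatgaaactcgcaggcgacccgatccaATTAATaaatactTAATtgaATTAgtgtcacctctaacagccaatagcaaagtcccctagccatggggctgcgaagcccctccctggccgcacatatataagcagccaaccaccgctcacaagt
Dlx1, chr2:71529195-71529444, plus strand: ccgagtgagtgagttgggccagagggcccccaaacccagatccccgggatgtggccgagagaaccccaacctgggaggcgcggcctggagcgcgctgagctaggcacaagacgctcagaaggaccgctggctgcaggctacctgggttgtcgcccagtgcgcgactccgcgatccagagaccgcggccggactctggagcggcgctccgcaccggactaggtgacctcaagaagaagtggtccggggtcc
The Eomes promoter held 4 matches to TAAT, of which 2 overlap each other, between 124 and 104 bases before the start. That of Isl1 held 2, at 177 and 112 bases before the start. The E-box matched 1 time in the Isl1 promoter, at 103 bases before the start, and 2 times in that of Pou4f1, at 118 and 41 bases. The Dlx1 promoter held neither pattern, while that of Dlx2 held 2 E-boxes. Over 32841 promoter windows of the same length, 54.9% held TAAT and 66.2% held CANNTG, so either match is common. The Ebf pattern CCCNNGGG, found in 11.8% of windows, was present in those of Isl2 and Ebf3 and in none of the other promoters of the group searched. In these windows no match overlapped one of a different pattern. A match is a run of letters, and the arrays did not measure binding.

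Some array measures differed within genotypes and some between them. The median signal was 108 to 121 in WT against 93.6 to 129 in Oa1-/-. The targeted gene followed the labels, as Gpr143 read 251 ± 5.30 (SD, n = 3) in WT against 24.5 ± 16.9 (SD, n = 3) in Oa1-/-. Its values without Oa1 were 28.3, 39.1 and 6.02, of which the last lay under the highest bacterial control of its array. The size of the log2 change therefore depended on the pseudocount, from −3.64 at 1 to −1.85 at 64, and was −2.82 at 16 (SE 0.34, adjusted p = 0.318 in limma). WT replicate 3 stood apart by Eif2s3y, a Y-linked gene, at 9.26 against 406 to 805 on the other arrays. That value lay under the highest bacterial control of its array, 29.9. The part of the pools' sex makeup in the values of the factors was not tested. The 3' control probe set for 18S ribosomal RNA read 1476 to 1988 in WT against 2608 to 6348 in Oa1-/-, with the highest value on Oa1-/- replicate 1. On the arrays, 27 bacterial controls give a measure of background, and the highest of them read 22.1 to 39.3.

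Among the ganglion cell factors, 0 of the 16 probe sets passed the test between genotypes. Their smallest adjusted p was 0.985 in limma. Of all probe sets tested, 0 of 27029 probe sets (0%) passed, and 1110 (4.11%) had an unadjusted p below 0.05, with 1.64% higher and 2.46% lower in Oa1-/-. Among the factors, 1 of 16 had such a p, Ebf1 on probe set 1448293_at, which was higher. Log2 changes ran from −0.13 to 0.32, with 10 positive and 6 negative. Over all probe sets tested, 47.4% had a positive log2 change. The median log2 change was 0.04 for the 16 probe sets and −0.01 for all. Each probe set had its own 95% interval, and the lowest lower bound among the 16 was −0.46 (Ebf3 1428349_s_at) and the highest upper bound 0.69 (Eomes 1435172_at) on the log2 scale.

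**Figure D1:**
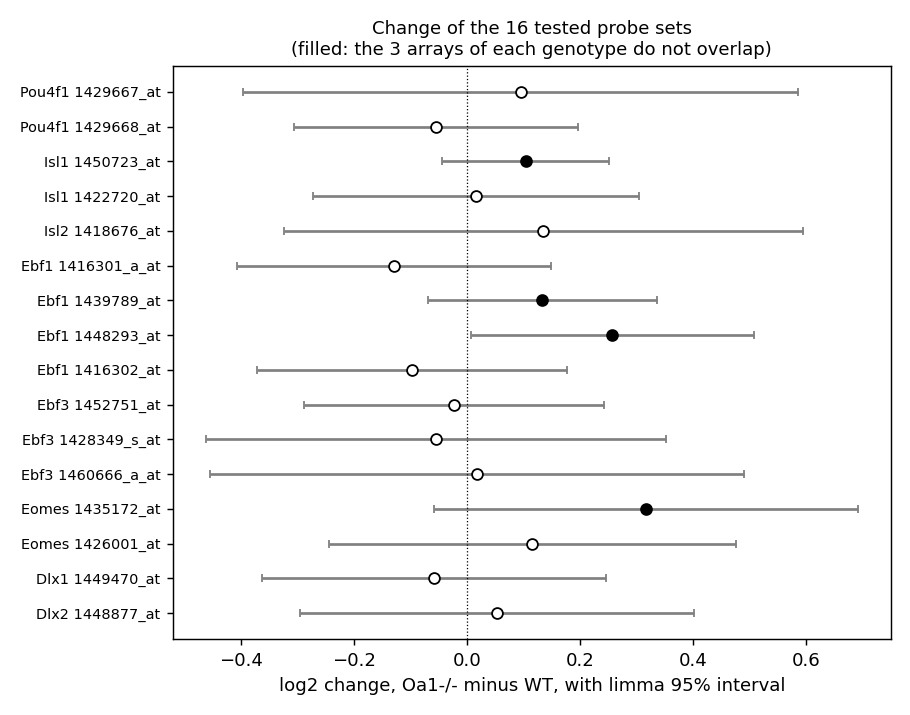
Log2 change (Oa1-/- minus WT, on the log2(signal + 16) scale) of the 16 tested probe sets, with limma's 95% intervals. Of the 16 intervals, 15 include 0, and filled points mark the 4 probe sets on which the 3 arrays of each genotype did not overlap, all with higher values in Oa1-/-.

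The 3 arrays of each genotype did not overlap on 4 of the 16 probe sets, and Oa1-/- was higher on each. These were Isl1 1450723_at, Eomes 1435172_at and the Ebf1 probe sets 1439789_at and 1448293_at. Over all probe sets tested the groups did not overlap for 10.2%, with 4.92% higher and 5.31% lower in Oa1-/-. For each of the 4, the exact permutation p over the 6 samples was 0.1 (two-sided), the smallest that 3 against 3 can give. Groups of 3 that do not overlap always give that p, so it adds nothing to the separation. After quantile normalization 3 of the 4 remained apart, without Isl1, and after median centring all 4 did. In none of the 3 genes did every probe set separate the genotypes.

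**Figure D2:**
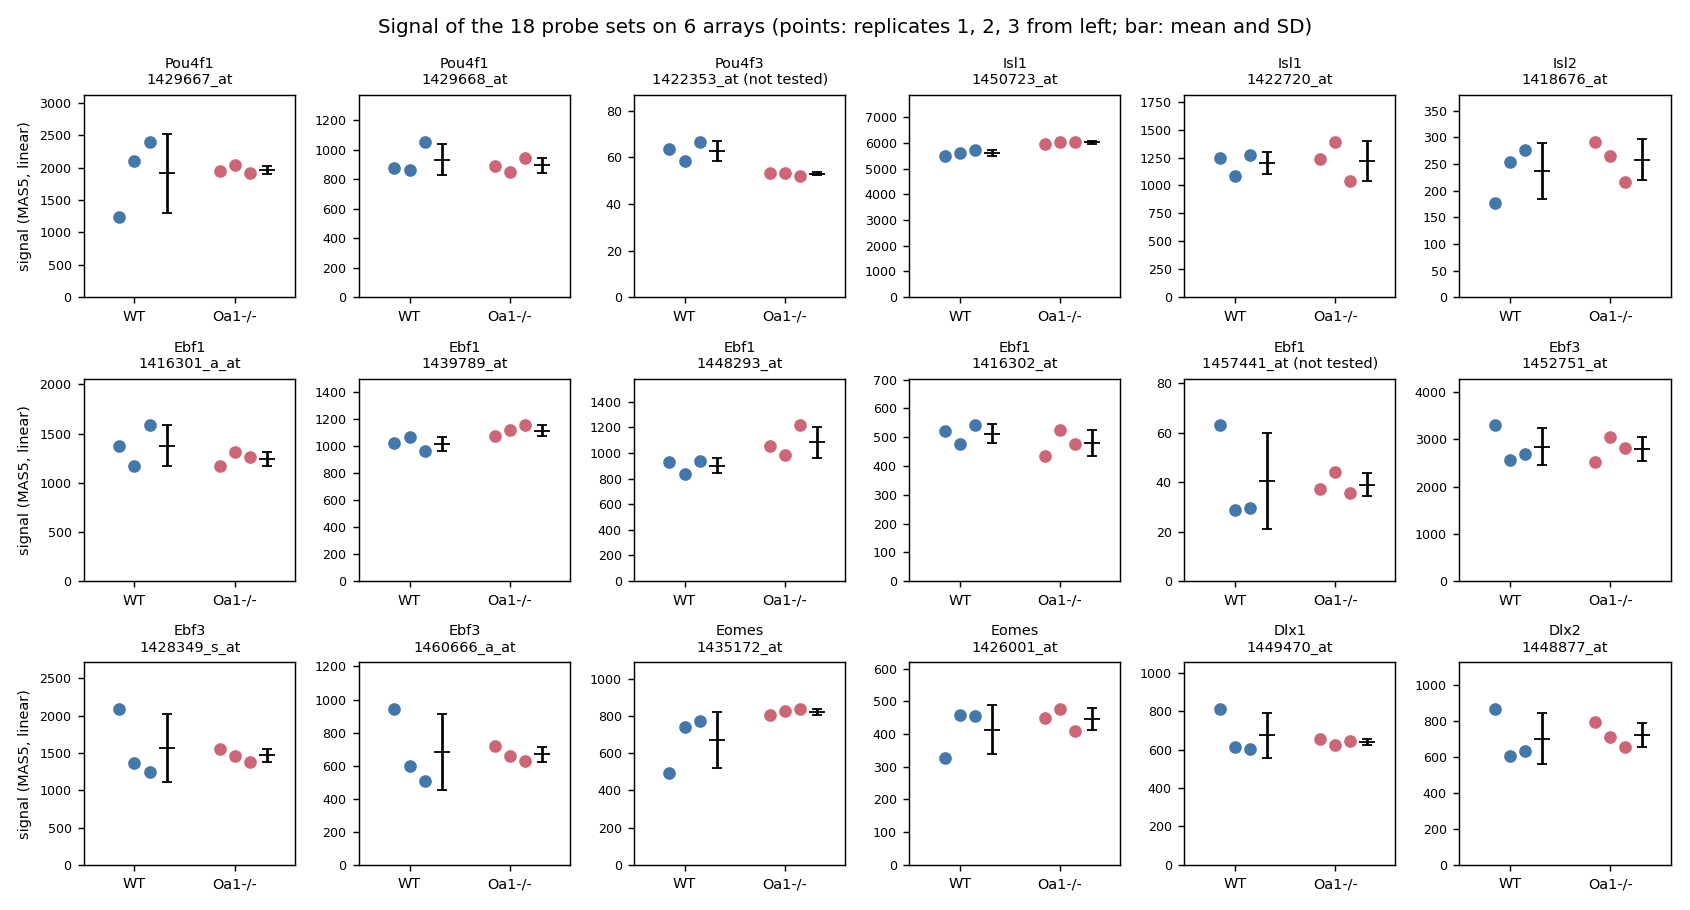
Signal (linear MAS5 scale, vertical axes from 0) of all 18 probe sets on the 6 arrays, with WT in blue and Oa1-/- in red, and bars for the mean and SD of 3 arrays. The WT points spread more widely than the Oa1-/- points on most panels, as for Pou4f1 1429667_at, at 1234 to 2404 in WT against 1918 to 2039 in Oa1-/-.

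Pou4f1 (Brn3a), which supports the survival and subtype identity of ganglion cells, did not separate the genotypes. Its probe set 1429667_at read 1234, 2098 and 2404 on the WT arrays and 1945, 2039 and 1918 on the Oa1-/- arrays. All 3 Oa1-/- values lay inside the WT range, and WT replicate 1 was by far the lowest. The log2 change was 0.10 (SE 0.21, 95% interval −0.40 to 0.59), and without WT replicate 1 it was −0.19. The other probe set, 1429668_at, read 878, 865 and 1055 in WT against 892, 846 and 946 in Oa1-/-, with a log2 change of −0.06 (SE 0.11). There WT replicate 1 was not low, so the probe sets of this gene did not share the dip on that array, and over the 6 arrays their log2 values correlated at 0.43.

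Pou4f3 (Brn3c), the POU factor of a subset of ganglion cells, read 63.7, 58.3 and 66.8 in WT against 53.4, 53.4 and 52.2 in Oa1-/- on 1422353_at. All 6 values lay above the highest bacterial control of their array. The Oa1-/- arrays were all lower than the WT arrays, but the mean signal fell under the filter at 66.0. In a fit without that filter, the log2 change was −0.19, with an unadjusted limma p of 0.414.

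Isl1, which acts beside Pou4f2 at the start of the ganglion cell programme, was slightly higher on all Oa1-/- arrays on its brightest probe set, which did not pass the test. On 1450723_at the WT arrays read 5474, 5616 and 5710.1 and the Oa1-/- arrays 5956, 6049.7 and 6049. Every Oa1-/- array was higher than every WT array. The log2 change was 0.10 (SE 0.06, 95% interval −0.04 to 0.25), a 1.07-fold difference with an unadjusted limma p of 0.145. The spread within genotypes was among the smallest on the array, with a residual SD of 0.0235 on the log2 scale, and 0.152% of the tested probe sets had a smaller one. limma raises such an SD towards that of other probe sets of like signal, so the p does not rest on these 6 values alone. With 1 array left out, the log2 change ran from 0.09 to 0.12.

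The second Isl1 probe set did not separate the genotypes. On 1422720_at the WT arrays read 1245, 1085 and 1275 and the Oa1-/- arrays 1234, 1393 and 1035. The highest and the lowest of the 6 values were both in Oa1-/-, and the log2 change was 0.02 (SE 0.13). The log2 values of the Isl1 probe sets correlated at 0.04 over the 6 arrays. Isl2, which in the retina marks ganglion cells that project across the midline, read 177, 254 and 277 in WT against 292, 266 and 217 in Oa1-/- on 1418676_at. The groups overlapped, with WT replicate 1 lowest and Oa1-/- replicate 1 highest. Its log2 change of 0.14 (SE 0.20, 95% interval −0.32 to 0.59) was −0.05 without WT replicate 1.

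Eomes (Tbr2), a T-box factor that lies downstream of Pou4f2 and is needed for optic nerve formation and for ganglion cells that express melanopsin, had the largest log2 change of the 16 probe sets. On 1435172_at the WT arrays read 496, 740.2 and 769.7 and the Oa1-/- arrays 802, 826 and 835. Every Oa1-/- array was higher, with WT replicate 1 far under the other WT arrays. The log2 change was 0.32 (SE 0.16, 95% interval −0.06 to 0.69), a 1.25-fold difference with an unadjusted limma p of 0.0883. Without WT replicate 1 the log2 change was 0.12, and without WT replicate 3 it was 0.43. Of all tested probe sets, 12.4% had a larger change in either direction.

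On the second Eomes probe set, 1426001_at, the WT arrays read 326, 458 and 456 and the Oa1-/- arrays 449, 476 and 409.8. WT replicate 1 was again the lowest, but the other arrays overlapped. The log2 change was 0.12 (SE 0.16), and without WT replicate 1 it was −0.04. Over 6 arrays the Eomes probe sets correlated at 0.88, and without WT replicate 1 at −0.37, so their likeness rested on that array.

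Ebf1, a helix-loop-helix factor of differentiating neurons, was measured by the most probe sets of the group, and they did not share a direction. On 1448293_at the WT arrays read 932, 836 and 937 and the Oa1-/- arrays 1052, 983 and 1216. The groups did not overlap, and the log2 change was 0.26 (SE 0.11, 95% interval 0.01 to 0.51) with an unadjusted limma p of 0.0455. Without Oa1-/- replicate 3 it was 0.17. On 1439789_at the WT arrays read 1019, 1065 and 963 and the Oa1-/- arrays 1073, 1118 and 1153. The groups again did not overlap, with a log2 change of 0.13 (SE 0.09).

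The remaining Ebf1 probe sets were lower or near background. On 1416301_a_at the WT arrays read 1374, 1166 and 1584 and the Oa1-/- arrays 1169, 1309 and 1262, with a log2 change of −0.13 (SE 0.12). On 1416302_at the log2 change was −0.10 (SE 0.12), from 475 to 541 in WT against 436 to 525 in Oa1-/-. The groups overlapped on both. These correlated with each other at 0.85 over the 6 arrays, as did 1439789_at and 1448293_at at 0.60, while 1416301_a_at and 1439789_at correlated at −0.68. The fifth probe set, 1457441_at, read 28.9 to 62.9, with 3 of 6 arrays above their highest bacterial control, and was not tested. The mean of the 4 tested probe sets gave a log2 change of 0.04 (SE 0.09).

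Ebf3, a close relative of Ebf1, overlapped between genotypes and had its highest value on 1 WT array. Its probe set 1452751_at read 3298, 2565 and 2684 in WT against 2523, 3047 and 2818 in Oa1-/-, with a log2 change of −0.02 (SE 0.12). On 1428349_s_at the WT arrays read 2086, 1362 and 1242 and the Oa1-/- arrays 1551, 1465 and 1385, with a log2 change of −0.05 (SE 0.18). On 1460666_a_at they read 941, 597 and 507, and 717, 659 and 627, with a log2 change of 0.02 (SE 0.21). WT replicate 1 was the highest of the 6 arrays on all 3, and on the latter pair the Oa1-/- values lay between that array and the other WT arrays. Without WT replicate 1 the changes of the 3 probe sets were 0.09, 0.17 and 0.27. The probe sets 1428349_s_at and 1460666_a_at correlated at 0.98.

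Dlx1 and Dlx2, homeodomain factors of late ganglion cell differentiation and of amacrine cells, lie next to each other on chromosome 2, with 0 protein-coding genes between them. Dlx1 read 809.9, 611 and 602 in WT against 653, 623 and 647 in Oa1-/- on 1449470_at. Dlx2 read 865, 603 and 635 in WT against 792, 713 and 657 in Oa1-/- on 1448877_at. The groups overlapped for both, and WT replicate 1 was the highest array for both. The log2 changes were −0.06 (SE 0.13) for Dlx1 and 0.05 (SE 0.15) for Dlx2, and without WT replicate 1 they were 0.08 and 0.21. Their log2 values correlated at 0.83 over the 6 arrays and at 0.71 without that array.

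WT replicate 1 was the extreme array on 10 of the 16 probe sets. It was the lowest array on 5 of the 16 probe sets, those of Isl2, both of Eomes, Pou4f1 1429667_at and Isl1 1450723_at. It was the highest on 5 others, those of Dlx1, Dlx2 and all 3 of Ebf3. Over all tested probe sets it was the lowest for 19.4% and the highest for 20.2%. WT replicate 3 was the lowest on 4 of the 16 and the highest on 4. Over all tested probe sets, Oa1-/- replicate 1 was most often the lowest array, for 27.7%. The deviation of WT replicate 1 from the mean over the arrays was −0.62 on the log2 scale for Pou4f1 1429667_at and −0.55 for Eomes 1435172_at. It was 0.50 for Ebf3 1460666_a_at and 0.30 for Dlx1. The SD of log2 values was larger in WT than in Oa1-/- on 13 of the 16 probe sets, against 49.2% of all tested, and was not compared by a test.

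**Figure D3:**
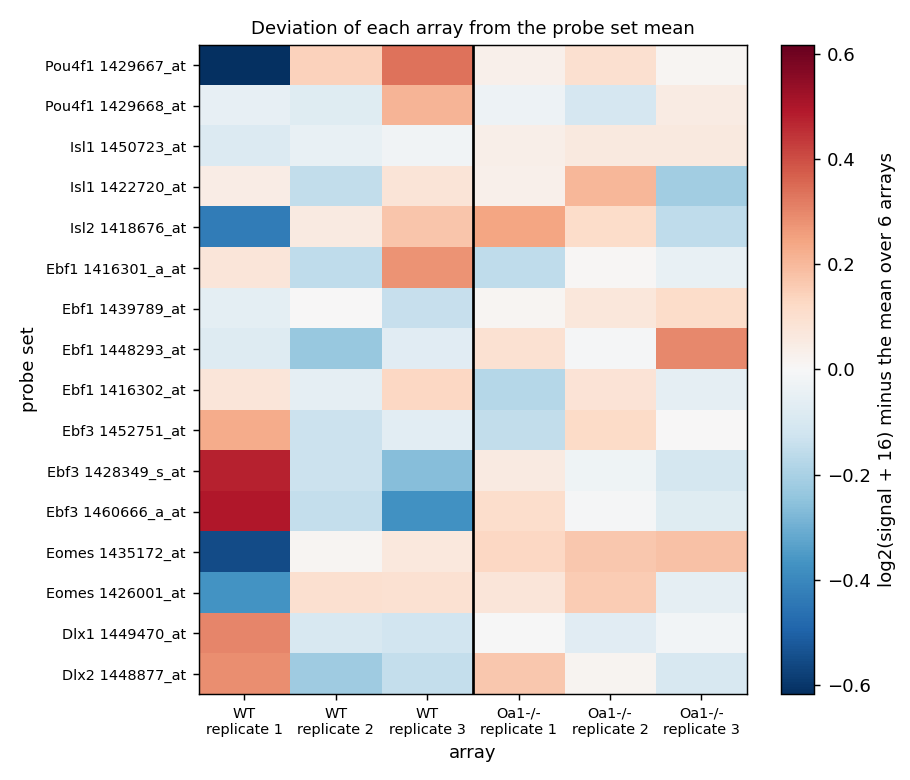
Deviation of each array (columns) from the probe set's mean over the 6 arrays, on the log2(signal + 16) scale, for the 16 tested probe sets (rows), red above and blue below the mean. WT replicate 1 runs from −0.62 for Pou4f1 1429667_at to 0.50 for Ebf3 1460666_a_at, the widest range of the 6 columns.

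Correlations between factors are a description of 6 arrays, on which WT replicate 1 was often the extreme point. Pou4f1 1429667_at and Dlx1 correlated at −0.98, and at −0.88 without WT replicate 1, whereas Pou4f1 1429668_at and Dlx1 correlated at −0.29. Without WT replicate 1 the most negative value was that of Pou4f1 1429667_at and Ebf1 1439789_at, at −0.91, a pair at −0.0029 over all 6 arrays. Other negative correlations turned positive without that array. Eomes 1435172_at and Dlx1 went from −0.89 to 0.68, and Eomes 1435172_at and Ebf3 1428349_s_at from −0.84 to 0.48. Pou4f1 1429667_at and Eomes 1426001_at correlated at 0.93, and at 0.43 without that array. Isl1 1450723_at and Eomes 1435172_at, both apart by genotype, correlated at 0.83, and at 0.99 without that array. By the rule of the highest Pearson correlation over the 6 arrays, among 12884 other genes, the genes most like Pou4f1 1429667_at were Rph3a (r = 0.995), Rab3d (0.994), Col1a2 (0.991), B3gat3 (0.990) and Tnmd (0.989). Those most like Isl1 1450723_at were Nos3 (0.991), Ndufa3 (0.988), Fem1b (0.986), 2900093K20Rik (0.985) and Cpsf4l (0.981). Of the 12884 genes, 283 had a correlation above 0.9 with Pou4f1 1429667_at and 94 with Isl1 1450723_at. With 6 arrays a high value need not mean a link, and how often such values arise by chance was not tested.

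Markers of other tissues also set WT replicate 1 apart, with WT replicate 3 at the other end for several lists. A list's score is the mean of its genes' log2 deviations on an array. On WT replicate 1 the score was −0.66 for 6 lens genes, −0.45 for 5 photoreceptor precursor genes, −0.62 for 6 muscle genes and −0.15 for 21 ganglion cell products, each the lowest of the 6 arrays. It was 1.20 for 3 blood genes and 0.18 for 14 genes of the periocular mesenchyme, each the highest. The mesenchyme genes did not move together. Foxc1, Foxc2, Twist1, Prrx1, Prrx2, Osr2 and Pdgfra were highest on that array, and Col1a1, Col1a2, Col3a1, Lum and Dcn lowest. For 8 amacrine and horizontal cell genes the score was −0.11 on WT replicate 1, while Dlx1 and Dlx2, factors of those cells too, were highest there. On WT replicate 3 the score was 0.25 for the lens and 0.26 for the photoreceptor precursor genes, each the highest. For the blood genes it was −1.01 on that array, the lowest. Both blood extremes rested on the globins Hbb-y and Hba-x. Alas2 went the other way, at 437 on WT replicate 1 against 595 and 580 on WT replicates 2 and 3. The part of tissue makeup in the values of the factors was not tested. In pooled tissue, fewer cells of a type and less RNA per cell cannot be told apart.

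**Figure D4:**
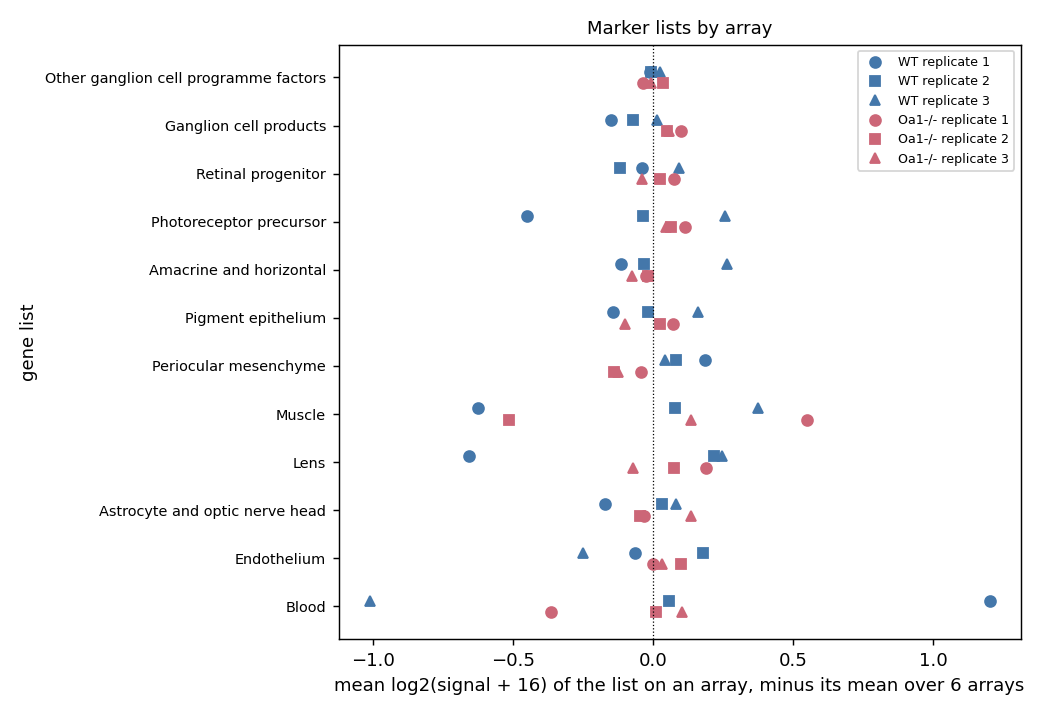
Score of 12 gene lists (rows) on the 6 arrays, as the mean log2(signal + 16) of the list's tested genes minus its mean over the arrays. WT replicate 1 (blue circles) is lowest for lens, muscle, photoreceptor precursors and ganglion cell products and highest for blood, at 1.20. The score of the other ganglion cell programme factors stays between −0.04 and 0.04 on all 6. Opposite deviations offset each other in that mean, as Irx3 and Irx5 were highest on WT replicate 1 and Barhl2 and Tbx20 lowest.

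The tissue carried the markers of the embryonic retina. All 7 measured progenitor genes passed the filter, as did 5 of 6 photoreceptor precursor genes. Rcvrn, Rpe65 and Tbr1, genes of photoreceptors, the visual cycle and a ganglion cell subset, did not exceed the bacterial controls on any array. Lens genes were present although the anterior segments had been removed, with a summed signal of 60180 to 87219 in WT against 76836 to 85344 in Oa1-/-.

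Other factors of the ganglion cell programme also gave no call. Of 24 listed genes, 20 had a probe set and 19 were tested, 11 with a positive and 8 with a negative log2 change, at a median of 0.01. None passed with adjustment over all probe sets, and 1 had an unadjusted p below 0.05, higher in Oa1-/-, where 1.64% of all tested probe sets were. That was Atoh7, the helix-loop-helix factor that makes progenitors competent for the ganglion cell fate. On 1422929_s_at it read 13532, 13627 and 14205 in WT against 15864, 15370.3 and 14987 in Oa1-/-. Every Oa1-/- array was higher, at a log2 change of 0.16 (SE 0.06, unadjusted limma p of 0.0371, adjusted p of 0.985).

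The second Atoh7 probe set was also higher on every Oa1-/- array. On 1450796_at the WT arrays read 4221, 4044 and 3852 and the Oa1-/- arrays 5226, 4779 and 5029.96. Its log2 change was 0.31 (SE 0.07, unadjusted limma p of 0.00280, adjusted p of 0.985). Tbx20, a T-box factor, read 131, 226 and 205 in WT against 234, 257 and 251 in Oa1-/- on 1453351_at, a log2 change of 0.41 (SE 0.21) that was 0.19 without WT replicate 1. Its other probe sets, at 45.6 and 32.2 in WT against 45.0 and 27.9 in Oa1-/-, were dim and not tested. Irx5, an Iroquois homeodomain factor, read 2166, 1505 and 1435 in WT against 1329, 1362 and 1461 in Oa1-/-, a log2 change of −0.27 (SE 0.15) that was −0.09 without WT replicate 1.

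Genes that ganglion cells express as products of the programme mostly had positive log2 changes, and none passed. Of 25 listed genes, 24 had a probe set and 21 were tested, 18 with a positive and 3 with a negative log2 change, at a median of 0.09. At an unadjusted p below 0.05 there were 5, all higher in Oa1-/-, and on 4 the groups did not overlap, also all higher. Of all tested probe sets, 1.64% had such a p and were higher, 4.92% were higher without overlap and 47.4% had a positive log2 change. Shh, the secreted signal by which ganglion cells act on progenitors, read 594, 482 and 438 in WT against 779, 683 and 693 in Oa1-/- on 1436869_at. All Oa1-/- arrays were higher, with a log2 change of 0.51 (SE 0.14, unadjusted limma p of 0.00535, adjusted p of 0.985). Its other probe set read under 36 on every array and was not tested. Nrn1, the neurite growth factor neuritin, read 948, 1116 and 932 in WT against 1241, 1254 and 1267 in Oa1-/-, a log2 change of 0.33 (SE 0.10). Stmn2, a microtubule regulator of growing axons, had log2 changes of 0.31 (SE 0.09) and 0.25 (SE 0.10) on its probe sets, with no overlap of the groups on either.

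Several measures moved with genotype beside these genes. The summed signal of the ganglion cell products was 62318 to 66157 in WT against 68895 to 74939.7 in Oa1-/-. That of 14 mesenchyme genes overlapped between genotypes, with 80551 to 85834 in Oa1-/- inside the WT range of 78219 to 93739. The list's scores did separate, at 0.04 to 0.18 in WT against −0.14 to −0.04 in Oa1-/-, and 12 of the 14 genes had a negative log2 change. No mesenchyme gene was at background. Twist1 (log2 change −0.42), Osr1 (−0.76) and Fbln2 (−0.40) had unadjusted limma p below 0.05 and were lower on every Oa1-/- array. Among 8 tested amacrine and horizontal cell genes, the same held for Prox1, at −0.61, and Tfap2b, at −0.22. As a list these 8 were split evenly, 4 up and 4 down in Oa1-/-, with the median change at −0.05. Of all tested probe sets, 2.46% had an unadjusted p below 0.05 and were lower, and 5.31% were lower without overlap. The 18S control signals did not overlap between genotypes either. Their part in the higher values of Atoh7, Eomes, Isl1 and Shh in Oa1-/- was not tested.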

How the data were processed

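The authors deposited 1 signal intensity per probe set and array on a linear scale. The submitters' processing notes name MAS5, with no version, as the tool for the deposited intensities. The 2% trimmed mean was 500.002 on all 6 arrays. Per the labels' protocols, 12.5 micrograms of RNA went into the biotinylated cRNA. The array annotation gave 1 symbol to 34945 probe sets, several to 932 and none to 9160, and through a RefSeq table (GRCm38.p6) 34741 were matched and 0 changed.

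Computed values were log2(signal + 16), so that changes of dim probe sets are understated. The 64 control probe sets were left out, and probe sets with a mean above the 40th percentile (a signal of 66.0) were kept. In R 4.3.3, limma 3.58.1 (lmFit, eBayes with an intensity trend) was fitted to all 6 arrays as Oa1-/- minus WT, two-sided, with Benjamini-Hochberg adjustment over 27029 probe sets and a threshold of 0.05. The code was tested on simulated data with known changes. The number of arrays limits precision. Each sample is a separate litter, so p-values measure the spread between litter pools.

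Genes and lists were chosen with earlier results of these data known. The rule named all probe sets of the members, Gpr143, Atoh7, the 3 genes with the smallest p on the brightest probe set of each of the 2 ganglion cell lists, and for Pou4f1, Pou4f2 and Isl1 the 5 genes of highest correlation, of which Pou4f2 could not be used. Alternatives were pseudocounts of 1 and 64, no filter or a 70th percentile filter, median centring or quantile normalization, a fit without trend, array weights, a block for the replicate number, gene means and leaving out each array.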

Additional observations from a re-analysis of the deposited data

How the results depend on the processing

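In limma, 0 of the 16 probe sets of the ganglion cell factors passed under each alternative run. Of all probe sets tested, 0 passed, except that 2 did with array weights. The count of factor probe sets with an unadjusted p below 0.05 was 1, but 0 without an intensity trend and 0 to 1 with 1 array left out. It was not always the same probe set. Leaving out WT replicate 3, it was Eomes 1435172_at (unadjusted limma p of 0.0382), with Ebf1 1448293_at at 0.0525. Leaving out Oa1-/- replicate 2, it was Ebf1 1448293_at (unadjusted limma p of 0.0334). The median log2 change of the factors, 0.04, was 0.0933 with array weights and ran from −0.0477 (without WT replicate 2) to 0.10 (without Oa1-/- replicate 3) with 1 array left out. Same-numbered samples come from different dams and their deviations correlated at −0.29, 0.16 and −0.23. These values gave no sign of a pairing by number, but with 3 arrays per genotype they cannot exclude one. With a replicate block, 0 probe sets passed, 1 factor probe set had an unadjusted p below 0.05 and the median was 0.04, so the block changed no call. Signs turned for Ebf3 1452751_at with median centring (0.0121) and, with array weights, for Ebf1 1416301_a_at (0.0427) and 1416302_at (0.0467) and Ebf3 1452751_at (0.13) and 1428349_s_at (0.0064). With 1 array left out, log2 changes that turned sign ran from −0.19 to 0.29 for Pou4f1 1429667_at, −0.11 to 0.0353 for 1429668_at, −0.0835 to 0.13 for Isl1 1422720_at, −0.0469 to 0.25 for Isl2, −0.0932 to 0.0871, −0.20 to 0.17 and −0.17 to 0.27 for Ebf3 1452751_at, 1428349_s_at and 1460666_a_at, −0.0392 to 0.20 for Eomes 1426001_at, −0.13 to 0.077 for Dlx1 and −0.044 to 0.21 for Dlx2. The cause was not tested. Median centring moved the median of all log2 changes by 0.03 and quantile normalization by 0.01. Under every alternative run, Isl1 1450723_at, Eomes 1435172_at, Ebf1 1448293_at and 1439789_at, Atoh7 1422929_s_at, Shh, Nrn1 and Stmn2 1423280_at kept a positive log2 change. Comparing overlap after rescaling was chosen after seeing the data. Under the 70th percentile filter Isl2 was not tested.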
